A study of Mus musculus with 23 samples.

Results

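The transcripts described here lie away from the targeted kinase genes, or are entries whose position was not analysed here, and differed between genotypes in bone marrow-derived macrophages (BMDM): the named genes Grpel2 and Plcxd1 and the GenBank cDNA entries AK007220, AK018404 and AK133004. They are 5 of the 26014 genes measured, read by 6 of 32885 probes that carry a RefSeq or GenBank entry, since Grpel2 has 2 probes. The members were chosen by measured values, in a limma fit with Benjamini-Hochberg adjusted p under 0.05. Plcxd1, AK007220 and AK018404 were selected on their difference between genotypes in medium, and Grpel2 and AK133004 on a difference between MK2/3-/- and wt in the response to LPS. For those contrasts the values below are a description with no test.

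Cells came from wild-type (wt) mice, mice lacking the kinase MK2 (MK2-/-) and mice lacking both MK2 and its relative MK3 (MK2/3-/-), all male animals labelled C57BL/6 (C57BL/6J in the methods, for the knockouts) and aged 10 to 14 weeks. Bone marrow was cultured for 9 days with 10 ng/ml of the growth factor M-CSF, then moved to medium without it, and BMDM were kept in medium or given 100 ng/ml lipopolysaccharide (LPS, a bacterial cell wall component) for 120 min. Each of the 6 groups had 4 arrays except MK2-/- in medium, which had 3, giving 23 arrays of a single dye. The BMDM of both knockouts came from mice deficient in the kinases. The 3 genotypes lay on 3 separate slides, and genotype and slide cannot be told apart. Within a slide, medium arrays lay in one row and LPS arrays in the other, so treatment and slide row cannot be told apart either.

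MK2 and MK3 are closely related kinases that p38 MAP kinase switches on after LPS. They phosphorylate proteins that bind AU-rich elements of messenger RNAs, such as tristetraprolin, and thereby govern how long many cytokine messages last and how well they are translated. Grpel2 encodes a nucleotide exchange factor of the mitochondrial Hsp70 that pulls proteins into the matrix. Plcxd1 encodes a protein with the catalytic X domain of phosphatidylinositol-specific phospholipase C. No function is attributed here to the cDNA entries.

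Both targeted genes were lower in the genotypes labelled as lacking them. Mapkapk2, which encodes MK2, had a mean signal of 12.22 on the log2 scale in wt medium against 8.91 in MK2-/- and 8.72 in MK2/3-/-. Mapkapk3, which encodes MK3, had 13.50 in wt, 13.74 in MK2-/- and 11.88 in MK2/3-/- medium. After LPS the Mapkapk2 means were 14.77 in wt, 11.96 in MK2-/- and 11.76 in MK2/3-/-, and both knockouts then overlapped the wt medium arrays. The Mapkapk3 means after LPS were 14.01, 13.98 and 10.70. The 7 measured of the 8 listed macrophage markers, Csf1r and Adgre1 among them, were well above background on all 23 arrays. The share of probes well above background ran from 47.5% to 69.1%, both extremes being MK2/3-/- arrays in medium (replicates 1 and 2), and leaving out any array singly did not change the number of members called in any comparison. Of 37 markers of other blood and stromal cell types, 21 were detected (well above background on every array of at least 1 group), and between MK2/3-/- and wt limma called 0 in medium (1 at an unadjusted p under 0.05, 0 by the methods' t-test) and 1 after LPS, the erythroid gene Hbb-bt, which was not among those detected. The unadjusted counts after LPS were 5 of the 37 by limma and 4 by the methods' t-test, where 3525 and 2419 of all 26014 genes were. Fewer cells of a type and less RNA per cell cannot be told apart in such bulk samples.

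The promoter windows of Plcxd1, the placed gene that was low in MK2/3-/- BMDM in both treatments, are printed as the sequence around its RefSeq start sites. Each holds 250 bases before and 50 after a RefSeq start site, 5′ to 3′ on the plus strand of GRCm38.p6, with motif matches in capitals.
Plcxd1, start site 1, chr5:110099719-110100018: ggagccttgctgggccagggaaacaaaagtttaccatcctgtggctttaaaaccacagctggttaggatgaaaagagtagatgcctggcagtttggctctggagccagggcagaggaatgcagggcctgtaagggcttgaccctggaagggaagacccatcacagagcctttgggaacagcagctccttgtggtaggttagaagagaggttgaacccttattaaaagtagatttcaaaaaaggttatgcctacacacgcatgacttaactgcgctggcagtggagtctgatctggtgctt
Plcxd1, start site 2, chr5:110100309-110100608: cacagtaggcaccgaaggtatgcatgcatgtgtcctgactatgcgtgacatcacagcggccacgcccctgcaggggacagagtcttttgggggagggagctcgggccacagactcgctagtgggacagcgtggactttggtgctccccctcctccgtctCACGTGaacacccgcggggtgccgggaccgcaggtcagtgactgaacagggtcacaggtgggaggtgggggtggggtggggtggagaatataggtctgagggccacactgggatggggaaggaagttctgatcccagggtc

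A set of 6 motifs was searched on both strands: the GC box GGGCGG, the TATA box TATAAA, the E box CACGTG, the AP-1 motif TGANTCA, the CRE TGACGTCA and the PU.1-type motif GAGGAAGT. The first Plcxd1 window held none of them and the second held 1 E box, beginning at base -91 relative to the start site. An E box occurred in 7.15% of 32851 promoter windows of the same length. The second Plcxd1 window was richer in G and C (62.7%, with 13 CpG) than the first (50%, with 2 CpG).

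Among the placed members, Plcxd1 lies at chr5:110099969-110105953 and Grpel2 at chr18:61712424-61726358 (GRCm38.p6), whereas Mapkapk2 lies on chromosome 1 and Mapkapk3 on chromosome 9. Thus neither shares a chromosome with a targeted gene. The positions of AK007220, AK018404 and AK133004 were not analysed here, and whether they are distant from the targeted loci was not tested.

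**Figure D1:**
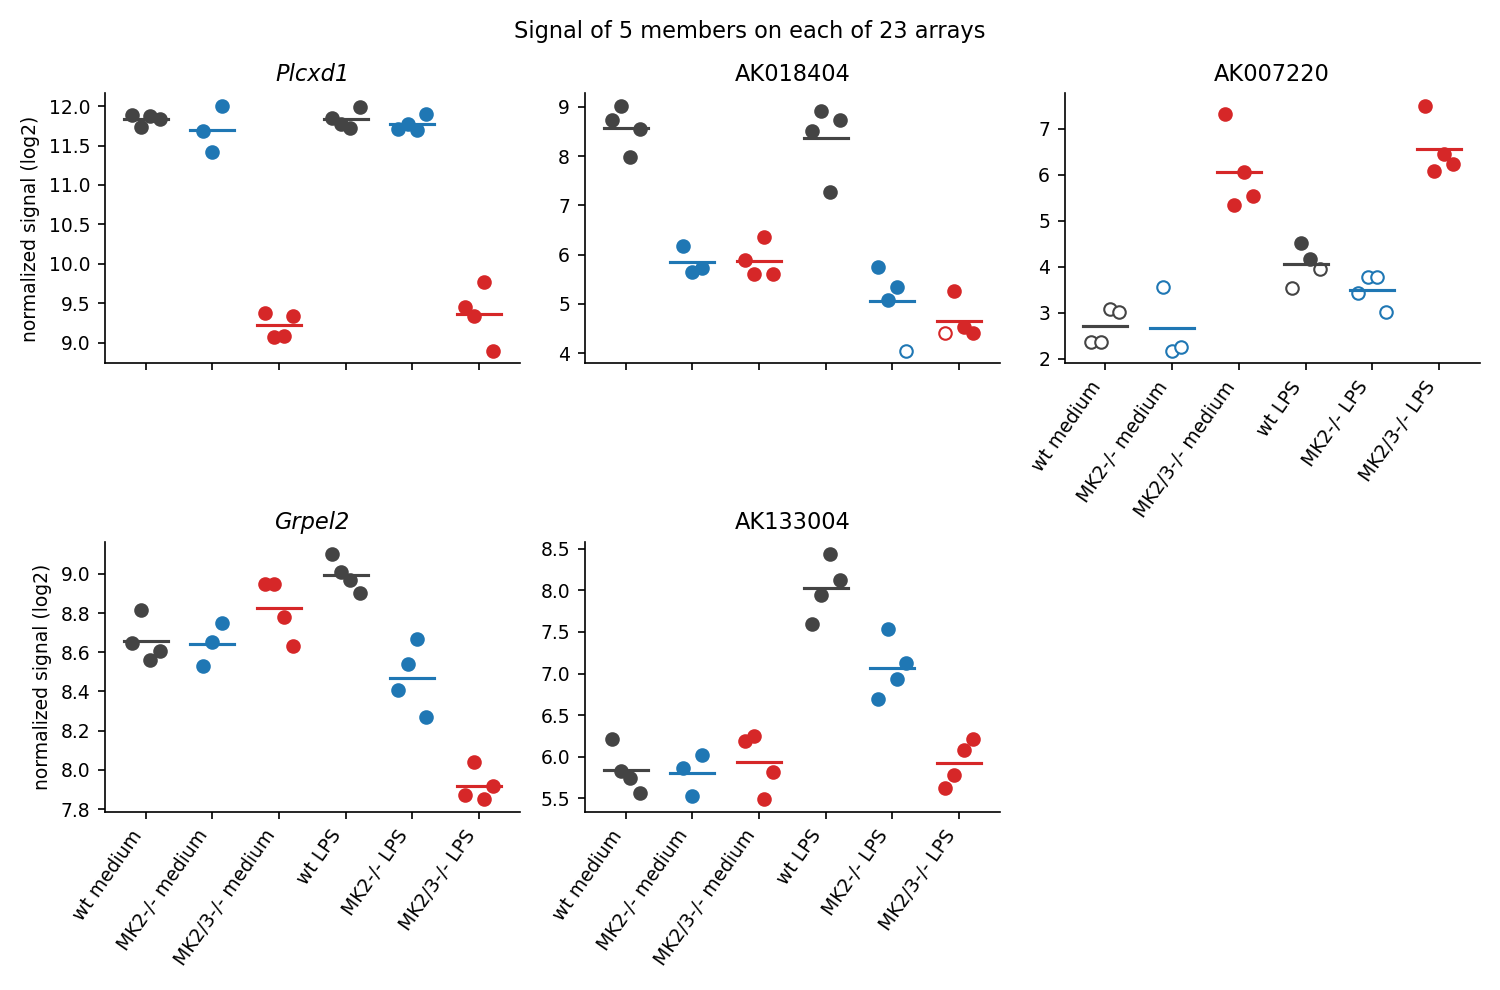
Normalized signal (log2, each panel with its own scale) of the 5 members on each of 23 arrays, by group. Points are arrays, filled where the probe was well above background and open where it was not, and lines are group means; Plcxd1 was low and AK007220 was high in MK2/3-/- BMDM, and AK018404 was low in both knockouts.

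Plcxd1 was strongly expressed in wt and MK2-/- BMDM and 5.31-fold to 6.12-fold lower in MK2/3-/- BMDM, whether or not LPS was given. In medium its signal (log2) was 11.88, 11.74, 11.87 and 11.84 in wt, 11.69, 11.42 and 12.00 in MK2-/-, and 9.37, 9.08, 9.09 and 9.35 in MK2/3-/- cultures. The MK2/3-/- arrays all lay more than 2 log2 units below the other arrays. The difference from wt in medium, which chose the gene, was -2.61 ± 0.15 (SE), a 6.12-fold lower signal.

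After LPS, the Plcxd1 signal was 11.85, 11.77, 11.73 and 11.98 in wt, 11.71, 11.77, 11.70 and 11.90 in MK2-/-, and 9.45, 9.34, 9.77 and 8.90 in MK2/3-/- BMDM. Again the MK2/3-/- arrays stood below all others with no overlap. The difference from wt was -2.47 ± 0.15 (limma, adjusted p = 2.79e-08), and from MK2-/- it was -2.41 ± 0.15 (limma, adjusted p = 4.31e-08). MK2-/- differed from wt by -0.06, with a 95% interval from -0.39 to 0.26. LPS itself moved Plcxd1 by 0.07 ± 0.09 averaged over the genotypes (limma, adjusted p = 0.597).

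AK007220 was highest in MK2/3-/- BMDM in both treatments. In medium it read 7.31, 5.34, 6.05 and 5.53 there, against 2.37, 2.37, 3.07 and 3.01 in wt and 3.56, 2.17 and 2.26 in MK2-/-, with none of the latter 7 well above background. Set against a floor, since the low groups were not well above background, the signal was 6.16-fold above wt and 5.67-fold above MK2-/-. Here and below the floor is, on each array of the dim group, the lowest signal of any probe well above background. The probe's own signal was used if higher. These folds are not strict lower limits, since this probe was not well above background at 3.96 on a wt LPS array. After LPS the MK2/3-/- arrays read 7.49, 6.07, 6.45 and 6.22. The wt arrays read 3.54, 4.53, 4.17 and 3.96, with 2 of the 4 well above background, and the MK2-/- arrays read 3.43, 3.79, 3.78 and 3.02 with none.

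The MK2/3-/- arrays lay above all others after LPS. The difference from wt was 2.51 ± 0.41 (limma, adjusted p = 0.00376). Set against the same kind of floor, MK2/3-/- was 5.01-fold above MK2-/- (difference of measured signals 3.06 ± 0.41, limma, adjusted p = 0.00221). MK2-/- and wt overlapped (limma, adjusted p = 0.783), and no size is given, since neither was well above background on all arrays. Within MK2/3-/-, culture 1 gave the highest AK007220 signal in both treatments (7.31 and 7.49). Averaged over genotypes, limma called the measured AK007220 signal higher after LPS (adjusted p = 0.00610), a call lost with normexp background correction (adjusted p = 0.190). No size is given for that average, because 13 of the 15 wt and MK2-/- arrays were not well above background. In MK2/3-/- BMDM, where every array was, the LPS response was 0.50 ± 0.41 and the arrays overlapped. In wt the LPS arrays lay above the medium arrays with no overlap. No size is given for that either, since 2 of the 4 wt LPS arrays and all wt medium arrays were not well above background.

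Unlike Plcxd1 and AK007220, AK018404 was low in both knockouts, so that its label as a transcript of MK2/3-/- BMDM covers only part of the pattern. In medium it read 8.74, 9.02, 7.97 and 8.55 in wt, against 6.17, 5.65 and 5.72 in MK2-/- and 5.89, 5.62, 6.36 and 5.60 in MK2/3-/-. The knockout arrays overlapped each other and lay below every wt array. The differences from wt, which chose the entry, were -2.72 ± 0.40 in MK2-/- and -2.70 ± 0.37 in MK2/3-/- BMDM.

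After LPS, AK018404 read 8.51, 8.92, 7.27 and 8.74 in wt, 5.75, 5.07, 5.35 and 4.04 in MK2-/-, and 4.40, 5.25, 4.54 and 4.41 in MK2/3-/- BMDM. In each knockout 1 array was no longer well above background. The wt arrays again stood apart, with differences of -3.31 ± 0.37 for MK2-/- (limma, adjusted p = 2.53e-04) and -3.71 ± 0.37 for MK2/3-/- (limma, adjusted p = 2.49e-05), which are 9.92-fold and 13.1-fold lower signals than in wt. The knockouts differed from each other by -0.40 ± 0.37 (limma, adjusted p = 0.870), with a 95% interval from -1.17 to 0.37. LPS lowered AK018404 by 0.74 ± 0.22 averaged over genotypes (limma, adjusted p = 0.0104), a call also lost with normexp (-0.31, adjusted p = 0.0736). By genotype the LPS response was -0.21 ± 0.37 in wt, where medium and LPS arrays overlapped, -0.80 ± 0.40 in MK2-/-, where they also overlapped, and -1.22 ± 0.37 in MK2/3-/- BMDM, where they did not.

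Of the stromal cell markers Col1a1, Col3a1 and Dcn, the collagens had lower means in both knockouts than in wt medium, as AK018404 did, while Dcn differed by 0.17 in MK2/3-/- and -0.50 in MK2-/-, and limma called none of them between a knockout and wt. Col1a1, a collagen of fibroblasts and osteoblasts, had means of 12.33 in wt, 9.61 in MK2-/- and 10.20 in MK2/3-/- medium, with arrays from 9.49 to 14.36, from 7.32 to 13.08 and from 6.32 to 14.07. The summed signal (linear) of Col1a1, Col3a1 and Dcn ran from 790 to 22120, from 202 to 9084 and from 126 to 18230, and these ranges overlapped. In wt culture 2, which had the lowest Col1a1 (9.49 in medium and 9.40 after LPS), AK018404 read 9.02 and 8.92, the highest of the wt arrays in each treatment. The part of such cells in the AK018404 result was not tested.

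Read against the whole array, the 3 members chosen in medium, Plcxd1, AK007220 and AK018404, were all called after LPS in MK2/3-/- against wt, where 1.64% of the 26014 genes were, and had groups that did not overlap, as 5.81% of genes did. Against MK2-/-, 2 of these 3 were called (0.161% of all genes) and the same 2, Plcxd1 and AK007220, did not overlap (5.14%). Between MK2-/- and wt, AK018404 was called (0.0308%) and did not overlap (3.72%). The LPS arrays came from the cultures whose medium arrays had chosen these genes, so they are further measurements of the same animals' cells and not new animals. The spread in the main fit was also pooled over the 6 groups, among them the medium groups that chose these genes. When only the compared groups entered the fit, Plcxd1 still passed in both of its comparisons, whereas AK018404 (adjusted p = 0.0603 for MK2/3-/- and 0.291 for MK2-/-) and AK007220 (0.114 against wt and 0.0813 against MK2-/-) did not pass in limma. Under that fit only 6 genes in all were called in MK2/3-/- against wt. By the methods' t-test no member passed adjustment in any of these comparisons, and with normexp the differences from wt after LPS were smaller but still called for AK007220 (0.91) and AK018404 (-2.16).

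For comparison, the share of genes called in medium, which the choice of members used, was 0.0769% for MK2/3-/- against wt, 0.0461% for MK2/3-/- against MK2-/- and 0.00769% for MK2-/- against wt, and 0.0115% differed in the LPS response between MK2/3-/- and wt. At the limit of the choice, Zfp932 (-1.02) was the last gene inside and Dars (-0.90) the first outside for MK2/3-/- against wt in medium. AK133004 (-2.20) was the last inside and Lig4 (-1.59) the first outside for the LPS response.

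**Figure D2:**
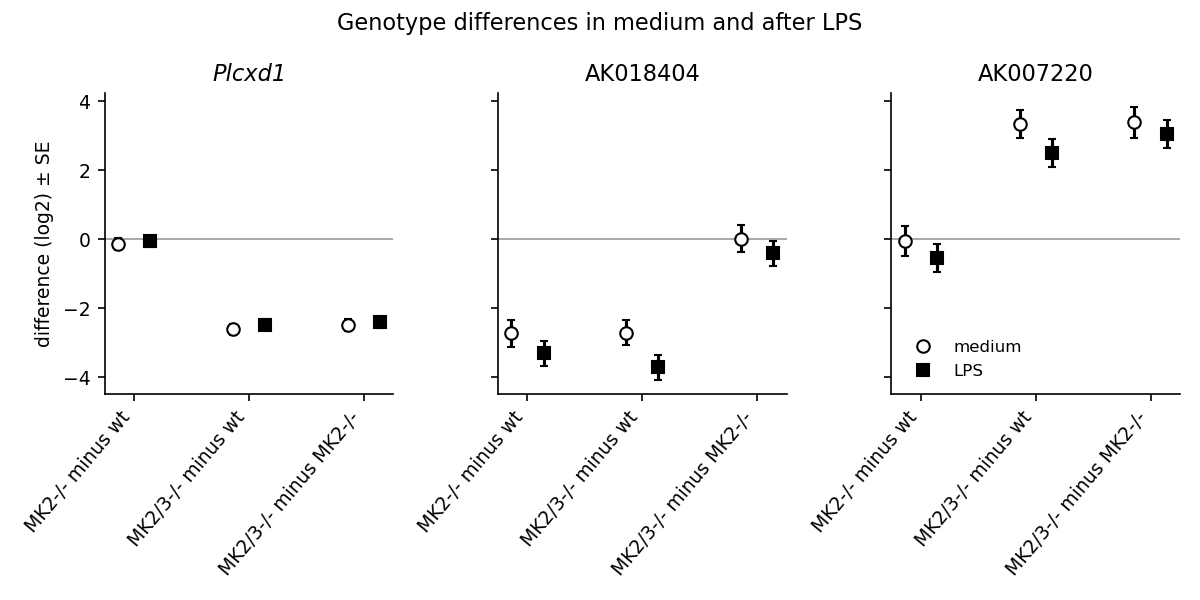
Differences between genotypes (log2, with SE) of the 3 members chosen in medium, with open circles for medium, which chose them, and filled squares for LPS. Plcxd1 differed from wt by -2.61 in medium and -2.47 after LPS in MK2/3-/-, and AK018404 was the only one of the 3 whose MK2-/- values lay far from 0.

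AK133004 read higher after LPS than in medium in wt and MK2-/- BMDM, whereas the MK2/3-/- arrays of both treatments overlapped. In medium the genotypes overlapped, with 6.21, 5.83, 5.74 and 5.57 in wt, 5.87, 5.53 and 6.02 in MK2-/- and 6.19, 6.25, 5.49 and 5.82 in MK2/3-/-. After LPS the signal was 7.59, 7.95, 8.44 and 8.12 in wt, 6.69, 7.53, 6.94 and 7.13 in MK2-/-, and 5.63, 5.78, 6.08 and 6.21 in MK2/3-/- BMDM. The 3 LPS groups did not overlap each other, and the MK2/3-/- LPS arrays lay within the range of medium arrays. Of all genes, 5.81% did not overlap after LPS between MK2/3-/- and wt, 5.14% between MK2/3-/- and MK2-/-, and 3.72% between MK2-/- and wt. As the LPS response chose the entry, its separation after LPS is a description only.

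Wt cultures had an AK133004 response of 2.19 ± 0.22, a 4.56-fold higher signal, MK2-/- cultures 1.26 ± 0.24 and MK2/3-/- cultures -0.01 ± 0.22. Of the 4 MK2/3-/- cultures, 2 read higher and 2 lower after LPS. The difference in response that chose the entry was -2.20 ± 0.32, and that of MK2-/- from wt, -0.92 ± 0.33. With normexp background correction the former was -1.32. The LPS effect averaged over genotypes comes from the same arrays and spread as that difference. In this design the estimates have a correlation of 0, but the shared spread means that the p-values of the average are not independent of the choice. On that average, LPS raised AK133004 by 1.15 ± 0.13 (limma, adjusted p = 7.35e-07), or 0.69 with normexp (adjusted p = 5.94e-07). In all, 4 of the 5 members were called for this average, with AK133004 and AK007220 higher and AK018404 and Grpel2 lower, where 38% of all genes were called. Its correlation with the differences in medium that chose AK007220 and AK018404 lay between -0.087 and 0.087.

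On the Grpel2 probe with the highest wt induction, the signal after LPS was slightly higher than in medium in wt and lower in MK2/3-/- BMDM. Its signal in medium was 8.65, 8.82, 8.56 and 8.61 in wt, 8.53, 8.65 and 8.75 in MK2-/- and 8.95, 8.95, 8.78 and 8.63 in MK2/3-/-. After LPS it was 9.10, 9.01, 8.97 and 8.90 in wt, 8.41, 8.54, 8.67 and 8.27 in MK2-/-, and 7.87, 8.04, 7.85 and 7.92 in MK2/3-/- BMDM. All groups overlapped in medium on this probe. Its LPS groups stood in the order wt, MK2-/-, MK2/3-/- with no overlap, beside 3.72% to 5.81% of all genes for single pairs of genotypes. Its LPS response in wt was 0.34 ± 0.11, that of MK2-/- cultures -0.17 ± 0.12 and that of MK2/3-/- cultures -0.91 ± 0.11, the last a 1.87-fold lower signal, and the difference between MK2/3-/- and wt that chose the gene was -1.24 ± 0.15.

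The second Grpel2 probe, for the same RefSeq transcript, gave another picture in wt. Its medium means were 6.97 in wt, 7.22 in MK2-/- and 7.01 in MK2/3-/-, and its LPS means were 6.38, 6.06 and 5.59, so that it was lower after LPS in all 3 genotypes. The difference in response between MK2/3-/- and wt had the same sign on this probe but was -0.83 in place of -1.24. Averaged over genotypes, the Grpel2 signal after LPS was lower by 0.25 ± 0.07 on the first probe (limma, adjusted p = 0.00477) and by 1.05 on the second. On the first probe this average joins a rise for wt with falls for the knockouts, so it describes no single genotype. Its p-value also rests on the arrays and spread that chose Grpel2, and is not independent of that choice. On the second probe the MK2-/- LPS arrays overlapped both other LPS groups, and the MK2-/- medium arrays (7.21 to 7.23) lay above all other medium arrays. The probes thus disagreed on the direction in wt, on the size of the LPS effect and on which groups overlapped.

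**Figure D3:**
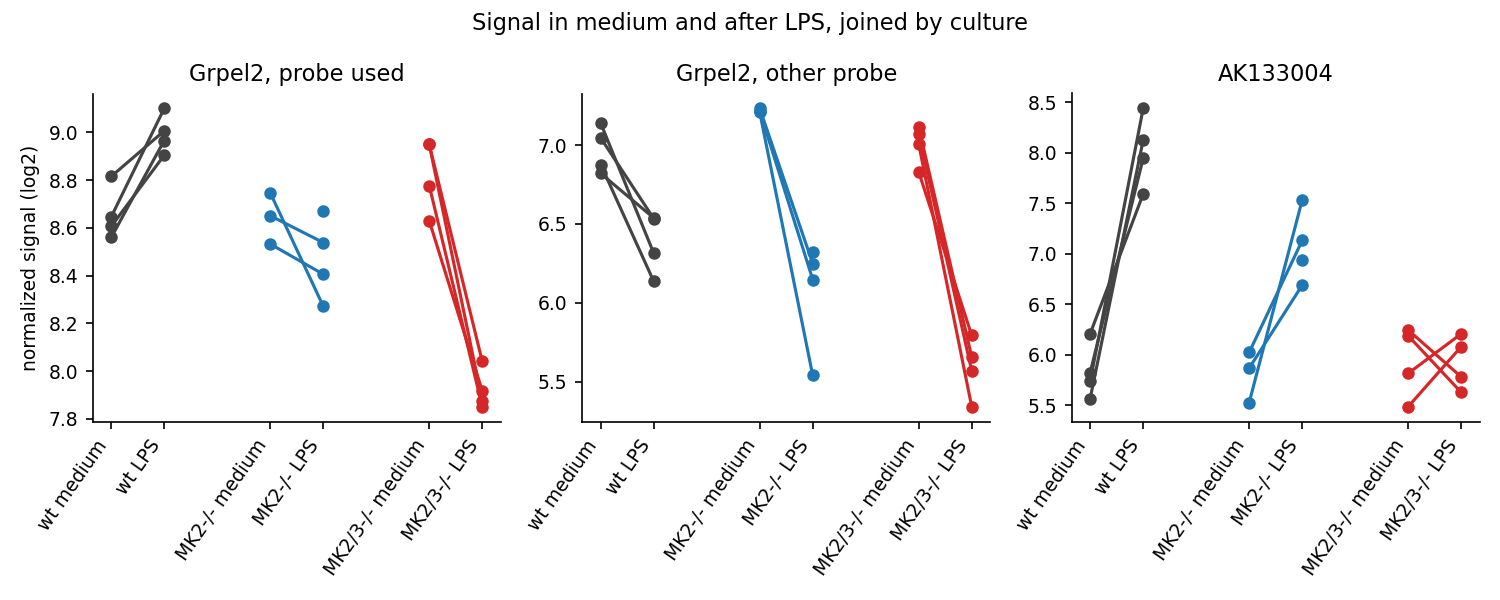
Normalized signal (log2, each panel with its own scale) of both Grpel2 probes and AK133004 in medium and after LPS, with lines joining the arrays of 1 culture and a lone point for the MK2-/- culture with no medium array. AK133004 stayed between 5.49 and 6.25 in MK2/3-/- BMDM, and the second Grpel2 probe had a lower mean after LPS in every genotype.

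Grpel2 works with the mitochondrial import machinery, of which 1 gene was called between MK2/3-/- and wt after LPS, beside 1.64% of all genes. All 24 listed genes of the translocases, the import motor and the matrix chaperones were measured and detected, and the called one was Timm17a of the inner membrane translocase, lower in MK2/3-/- (-0.82 ± 0.19, limma, adjusted p = 0.0321). The list's median difference was -0.25, against 0.01 for all genes. Averaged over genotypes, LPS raised 4 and lowered 7 of the 24, beside 38% of all genes called, the largest rise being Dnajc19, a J-domain partner of the import motor (1.17 ± 0.19, adjusted p = 3.93e-05), and the largest fall Tomm5, a small subunit of the outer membrane translocase (-0.65 ± 0.10, adjusted p = 1.74e-05, both limma). In medium, limma called 0 of the 24 in MK2/3-/- against wt, with 1 at an unadjusted p under 0.05 and 0 by the methods' t-test. Of all 26014 genes, 1205 had an unadjusted limma p under 0.05 there. After LPS the unadjusted counts were 8 by limma and 6 by the methods' t-test, beside 3525 and 2419 of all 26014 genes. None of the 24 passed the methods' t-test after adjustment.

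Of the phospholipase C family, 17 of 17 genes were measured and 10 detected. Plcl2, a catalytically inactive relative, was higher in MK2/3-/- than in wt after LPS (0.78 ± 0.20, limma, adjusted p = 0.0483) and the other 16 were not called, whereas Plcxd1 differed by -2.47. The list's median was 0.19. LPS raised 6 and lowered 1 of the 17 averaged over genotypes, again beside 38% of all genes, and of those raised Plcxd3 and Plcd4 were not detected. Among the called genes were Plch2 (0.70 ± 0.18, adjusted p = 0.00447) and Plcd3 (-1.02 ± 0.23, adjusted p = 0.00119, both limma).

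**Figure D4:**
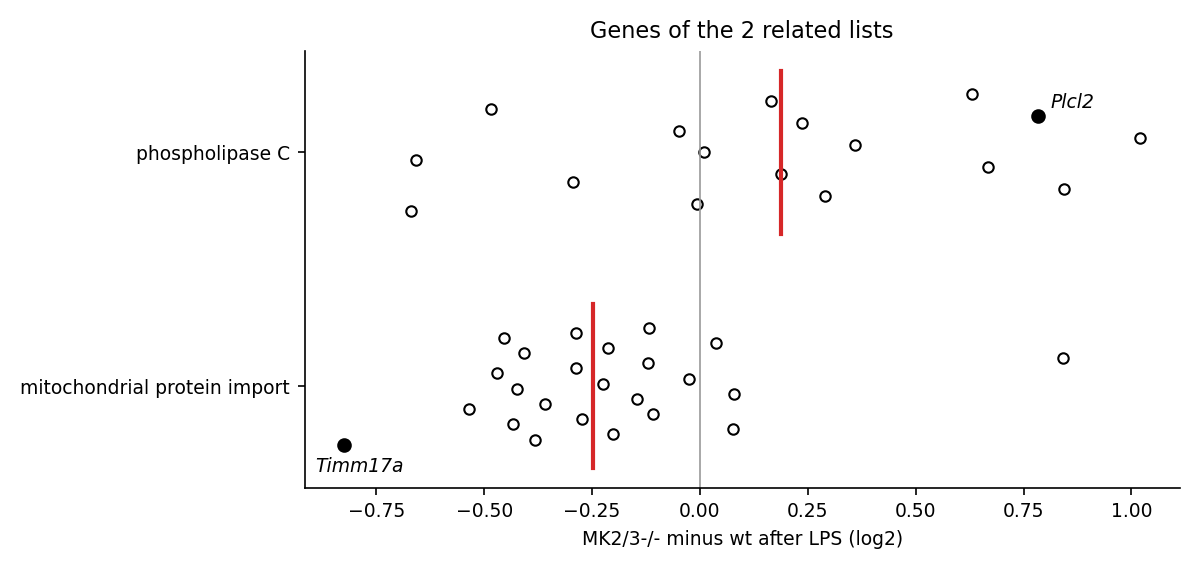
Difference between MK2/3-/- and wt after LPS (log2, horizontal axis) of each gene of the 2 related lists, members excluded. Filled points were called by limma (Timm17a at -0.82 and Plcl2 at 0.78), and red lines mark the list medians of -0.25 and 0.19.

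In the surroundings of Plcxd1, 12 genes within 500 kb were measured, all detected, and 1 of them, the zinc finger gene Zfp932 at -87.7 kb (negative distances lie at lower coordinates), was also lower in MK2/3-/- BMDM. Zfp932 had means of 9.71 in wt, 9.82 in MK2-/- and 8.69 in MK2/3-/- medium, and 8.77, 8.70 and 7.47 after LPS. After LPS it differed from wt by -1.30 ± 0.19 (limma, adjusted p = 0.00150) and from MK2-/- by -1.23 ± 0.19 (limma, adjusted p = 0.00793), with no overlap. Of all genes, 1.64% were called against wt and 5.81% did not overlap. Against MK2-/- the shares were 0.161% and 5.14%. Zfp932 had itself passed the limit in medium that chose members.

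Around Grpel2, 11 genes were measured and Afap1l1, which encodes an actin-associated adaptor 3.90 kb away, was higher in MK2/3-/- than in wt after LPS (1.86 ± 0.45, limma, adjusted p = 0.0425), opposite to Grpel2. By the methods' t-test none of the calls after LPS of Timm17a, Plcl2, Zfp932 and Afap1l1 passed adjustment. Their limma calls against wt stand beside the 1.64% of all genes called in that comparison.

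**Figure D5:**
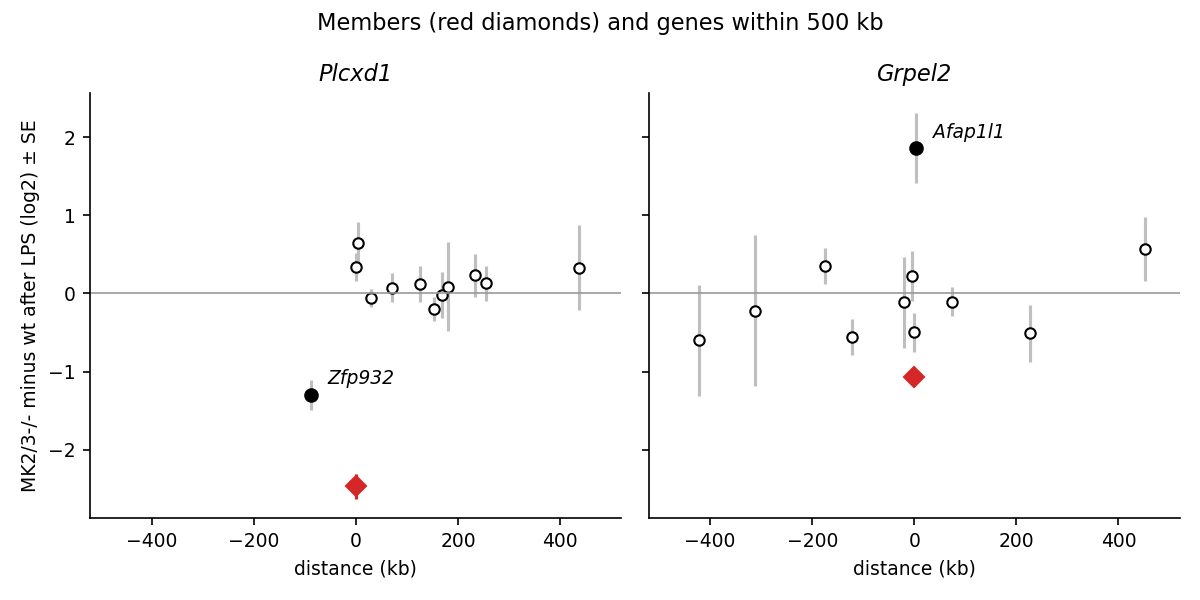
Difference between MK2/3-/- and wt after LPS (log2, with SE) against distance from the member in kb, for measured genes within 500 kb of Plcxd1 and Grpel2. Members are red diamonds (-2.47 and -1.07) and filled circles are the neighbours called by limma, Zfp932 and Afap1l1.

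The genes whose signals ran most like a member's were found by Pearson correlation over the 23 arrays among 15694 candidates, which share slides, treatment and cultures, so that r is a description only. Plcxd1 ran most like Serpinb6d (r = 0.950), a serine protease inhibitor gene on chromosome 13, and Abhd14b (r = 0.948), a hydrolase gene 0.802 Mb from Mapkapk3. Abhd14b had means of 10.87 in wt, 11.15 in MK2-/- and 7.29 in MK2/3-/- medium. AK007220 ran most like Cacng7 (r = 0.846), and with Wdr82 (r = 0.831), which lies 1.06 Mb from Mapkapk3.

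AK133004 ran most like Eaf1 (r = 0.875), a transcription elongation factor gene, and Il10 (r = 0.868), the gene of the anti-inflammatory cytokine IL-10, 28.7 kb from Mapkapk2. Il10 had means of 5.82, 6.01 and 6.14 in wt, MK2-/- and MK2/3-/- medium and 11.67, 10.14 and 8.45 after LPS, an order like that of AK133004, except that the Il10 mean was higher after LPS than in medium in MK2/3-/- BMDM too. Grpel2 ran most like Blzf1 (r = 0.879), Bag5 (r = 0.856), a co-chaperone of Hsp70, and Rpp38 (r = 0.853). AK018404 ran most like the entry XR_140447 (r = 0.837) and Prdx6 (r = 0.825), a peroxiredoxin gene on chromosome 1, 30.1 Mb from Mapkapk2. The Prdx6 probe was dim, with means of 4.05, 2.63 and 2.79 in wt, MK2-/- and MK2/3-/- medium. In size, r was larger for the genes most opposed to AK018404, Pam (-0.885), Ipo9 (-0.880) and Ctse (-0.869). They lie on chromosome 1 too, 33 Mb, 4.28 Mb and 0.54 Mb from Mapkapk2. Of the 15 genes found in this way, 12 had a position and 3 of these lay within 5 Mb of a targeted gene. Of the 15 that ran most opposite, by the same measure, 11 had a position and 5 lay within 5 Mb. AK007220, itself a member, was one of them, opposite to Plcxd1. The share of all candidates within 5 Mb was not computed, so whether these counts are large was not tested.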

How the data were processed

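RNA of BMDM from wt, MK2-/- and MK2/3-/- mice was hybridised with one dye to 23 Agilent arrays, 1 per sample. The authors deposited the scanner output of Agilent Feature Extraction 11.0.1.1, whose processed signal is a background-subtracted, gradient-corrected intensity on a linear scale, and a table of log2 values for the same arrays, which was used as an alternative. 2 arrays had no gradient correction (MK2-/- LPS replicate 1 and MK2/3-/- medium replicate 2).

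Processed signals were taken to log2 without control and flagged spots, averaged per probe over 55681 probes, and quantile normalized over the 23 arrays (R 4.3.3, limma 3.58.1). RefSeq and GenBank probes were named through RefSeq (GRCm38.p6), and each of 26014 genes was represented by whichever of its probes rose most with LPS in wt BMDM, following the study. A single limma fit (lmFit, eBayes) with 6 group means gave differences, standard errors and p-values, adjusted by Benjamini-Hochberg over all genes at 0.05. The number of arrays limits the precision, and with 4 against 4 arrays an exact permutation test cannot go below p = 0.0286. The methods' t-test, named after the study's methods, was the equal-variance test per gene on the same log2 values. The members and the lists of related genes were chosen with earlier results of these data known. A further transcript that met the same rule is not reported here. Named genes were the members, Mapkapk2 and Mapkapk3, the 3 genes most correlated with each member, the called genes of each list and neighbourhood (at most 3 with the largest change in each direction), and the genes at the limit of the choice. The 3 genes most opposed to AK018404 were named as well. The marker lists of other cell types were read only beside the results they touch, since markers of B, NK, mast and erythroid cells were mostly below background.

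Medium and LPS arrays were taken as 11 pairs of 1 culture each, by replicate number with 1 exception. MK2-/- medium replicate 3 was joined to LPS replicate 4 by the design text of the series and the animals' age. The deviations of paired arrays from their group means correlated with r from 0.0657 to 0.566 for 25902 genes (median 0.257, 10 of 11 above 0.1). For a subset of 12570 detected genes the pairs were more alike, with r from 0.359 to 0.776 (median 0.493). The study's methods give the replicates as completely independent experiments, 4 per time point. The p-values measure the spread between cultures within a group, pooled over the 6 groups. The main fit took all 23 arrays as independent and did not use the pairing. The alternatives were other scaling, background correction, floor, filters, probe choice, tests, covariates and leaving out arrays. The script was tested on simulated data.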

Additional observations from a re-analysis of the deposited data

Results flagged for a closer look

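Of 30 groups of 4 arrays checked for an array far from the others, 1 had one by Dixon's criterion, and chance alone marks about 1 group in 20. AK018404 read 5.25 in MK2/3-/- LPS replicate 2 against 4.40 to 4.54 in the others.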

How the results depend on the processing

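The numbers of members called after LPS (3 for MK2/3-/- against wt, 2 against MK2-/-, 1 for MK2-/- against wt) and for the averaged LPS effect (4 of 5) were the same without any single array (3 to 3, 2 to 2, 1 to 1 and 4 to 4). With only the compared groups in the fit they were 1 for MK2/3-/- against wt, 1 against MK2-/- and 0 for MK2-/- against wt, and with the methods' t-test 0, 0 and 0, although 3, 2 and 1 members passed that test unadjusted, where 2419, 1708 and 1403 genes did, and 5, 3 and 3 genes passed it after adjustment. With normexp background correction the averaged LPS effect was called for 2 members, AK007220 (0.18) and AK018404 (-0.31) dropping out, and the difference of the dim probe AK007220 in medium shrank to 0.90; the offset of 50 and the median signal used in place of the mean are part of that setting. Only a value near 0 changed sign, that of Plcxd1 in MK2-/- against wt after LPS (0.0038 with 75th percentile scaling). Leaving out the 2 arrays with no gradient correction gave the same counts. With the culture as a replicate block (correlation 0.241) the counts were again 3, 2, 1 and 4, and the pairing changed no call. These 2 arrays and the second Grpel2 probe were chosen as alternatives after seeing the data.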
